A study of Mus musculus with 4 samples.

Results

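The subject is a set of 38 S phase and DNA replication genes, chosen by name for their roles in genome duplication, among the 31247 genes with reads in a table of mouse lung RNA sequencing counts. All 38 were found and all passed the filter on low counts. They are grouped here by step into origin licensing, helicase activation, nucleotide supply, the fork, chromatin assembly, checkpoint and repair, and S phase entry.

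The cells were Pdgfrb-GFP positive cells, called myofibroblasts in the labels, sorted from lungs on postnatal day 7. The mutant group, Dnmt1 CKO (2 libraries), carries the PDGFRb-GFP reporter with 2 transgenes, Tbx4-rtTA and Tet-O-Cre, and the Dnmt1 allele written Dnmt1-D/D. The control group, WT (2 libraries), is labelled wild type with the same PDGFRb-GFP reporter, and no rtTA, Cre or Dnmt1 allele is named for it. In this system doxycycline lets rtTA, driven by Tbx4, switch on Cre, and the timing of doxycycline is not given in the labels. The sort was on Pdgfrb-GFP and not on Cre activity, so the sorted CKO cells can include cells that did not recombine. Each library came from 300000 to 350000 sorted cells. Libraries carry the letters A and B within a genotype, in the order of the count columns, with no pairing implied.

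Before S phase, origins are licensed when the factors Cdc6 and Cdt1 load the Mcm helicase onto DNA in an inactive form. Cyclin E kinase activity and the E2F transcription factors then promote S phase, the helicase is activated with Cdc45 and the GINS complex, and polymerases clamped by Pcna copy the strands. Dnmt1 acts at the same forks, where it restores methylation on newly made DNA with its partner Uhrf1. In the growing lung, mesenchymal cells divide during early postnatal alveolar formation.

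E2F factors bind the promoters of many replication genes, and the consensus letters of their site were looked for in RefSeq promoter windows (GRCm38.p6, 250 bases before to 50 after each start). Windows were found for 31 of the 38 genes. The letters TTTCCCGC or TTTGGCGC, on either strand, were in the windows of 10 of the 31 genes (32.3%), against 1.8% of 27025 genes with a window. Origin licensing genes held 6 of the 10 (Mcm3, Mcm5, Mcm6, Mcm7, Cdc6 and Cdt1), and the others were Dtl, E2f2, Msh6 and Pola1. None of the 12 matches shared a base with a CCAAT or TTTGAA match. Stretches before the RefSeq start of 3 licensing genes are shown because they carry these letters. Those of E2f8 and Tk1 are shown because these were the 2 genes that passed the test below. RefSeq starts can differ from the GENCODE M21 gene bounds used for coordinates below. By those bounds the Cdc6 stretch and part of the Tk1 stretch lie inside the gene. Capitals mark the E2F letters in Cdc6, Mcm5 and Mcm6 and the TTTGAA letters, read on the opposite strand, in E2f8. TTTGAA is the core of the cell cycle genes homology region, an element of many cell cycle promoters. Each sequence is written along the strand of its gene.
Cdc6, chr11:98907981-98908080, plus strand: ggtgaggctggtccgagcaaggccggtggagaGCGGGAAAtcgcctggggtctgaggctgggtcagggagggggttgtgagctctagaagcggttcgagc
Mcm5, chr8:75109319-75109418, plus strand: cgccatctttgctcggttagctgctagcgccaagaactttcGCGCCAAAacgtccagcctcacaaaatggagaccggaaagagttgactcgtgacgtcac
Mcm6, chr1:128359736-128359835, minus strand: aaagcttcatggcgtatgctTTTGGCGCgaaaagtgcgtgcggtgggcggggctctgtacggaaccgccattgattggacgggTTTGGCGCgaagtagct
E2f8, chr7:48881597-48881696, minus strand: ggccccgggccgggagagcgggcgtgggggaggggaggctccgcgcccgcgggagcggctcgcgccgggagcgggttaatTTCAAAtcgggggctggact
Tk1, chr11:117826015-117826114, minus strand: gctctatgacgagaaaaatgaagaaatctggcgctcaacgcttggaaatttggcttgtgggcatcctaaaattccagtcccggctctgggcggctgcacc

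The stretch of Mcm6 holds the letters at both of its matches, while those of Tk1 and E2f8 hold neither form. Only these exact letters were looked for, so other E2F sites could be missed. The 10 genes with a match had a median log2 change, CKO over WT, of -0.14. For the 21 with a window and no match it was -0.16. TTTGAA itself was in the windows of 5 of the 31 genes (16.1%) and of 20.2% of all genes, and CCAAT, the NF-Y core, in 20 of the 31 (64.5%) and in 41.1% of all genes. Member windows were rich in CpG, the dinucleotide that Dnmt1 methylates, with a median of 22.5 per window against 7 over all 32851 windows. The range was 5 to 48, and the E2f8 window held 32 and the Tk1 window 8.

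Depth ranged from 23071657 to 26420648 counted reads per library. Levels are given in CPM, the share of counted reads after TMM scaling, in which 1 read stood for 0.0377 to 0.0439 CPM. Dnmt1 itself was at 78.1 CPM in CKO A and 29.5 in CKO B, against 144 in WT A and 115 in WT B, and was not called in edgeR (log2 change -1.27, adjusted p = 0.31). Dnmt1 was called once CKO A was left out (log2 change -2.11, adjusted p = 3.82e-05) and once CKO B was (log2 change -0.72, adjusted p = 0.0401), and in the authors' deposited table it passes (log2 change -1.23, adjusted p = 0.029). CKO A held reads of the Y-linked gene Ddx3y (94.9 CPM) and the other 3 libraries held 0. The X-linked gene Xist was at 164 CPM in CKO A, against 1081 in CKO B, 849 in WT A and 671 in WT B. Acta2, a contractile marker of myofibroblasts, was at 4057 and 3133 CPM in CKO A and CKO B, against 3391 and 3150 in WT A and WT B. Tagln, also on the mesenchyme marker list and its lowest gene, was at 12 and 9.15 CPM in CKO A and CKO B. Its level was 10.1 CPM in WT A and 9.54 in WT B. Pdgfrb, the gene of the sort reporter, was at 374 and 317 CPM in CKO A and CKO B, against 507 and 477 in WT A and WT B (edgeR adjusted p = 0.0546, DESeq2 adjusted p = 0.00734). Of the 9 mesenchyme markers none was called in edgeR, Pdgfra was also lower in both CKO libraries (log2 change -0.60, adjusted p = 0.0526), and Col1a1 was higher in both (log2 change 0.58). Of 10 leukocyte markers, 8 were tested and 5 called higher in CKO. Their summed level was 47.6 to 74.6 CPM in CKO and 27.5 to 37.8 in WT, with no marker at 0 in all libraries. Erythroid markers were called lower for 2 of 5, with a summed level of 7.42 to 14 CPM in CKO and 22.8 to 30.2 in WT. Chondrocyte markers summed to 43.1 and 53.2 CPM in CKO A and CKO B, against 310 in WT A and 69.9 in WT B. Epithelial markers summed to 145 and 77.2 CPM in CKO A and CKO B, against 58.4 in WT A and 178 in WT B. Endothelial markers summed to 134 and 76.7 CPM in CKO A and CKO B, against 72.4 in WT A and 102 in WT B. No epithelial or endothelial marker was called. The part of these markers and of Y-linked and Xist expression in the results below was not tested.

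Replication genes differed little between genotypes. E2f8, an atypical E2F that represses transcription, and Tk1, thymidine kinase of the salvage pathway, fell in CKO, and no gene of the set was called higher. In edgeR's quasi-likelihood test at an adjusted p under 0.05, 2 of 38 (5.26%) were called, where 7.61% of the 15210 genes tested were called in either direction, 2.75% lower and 4.85% higher. The change in CKO lay within 1.2-fold of WT for 26 of the 38 genes. The median log2 change was -0.18, beside -0.01 over all genes tested, and 30 of 38 changes (78.9%) lay below 0, against 50.9% of all genes. Because RNA was taken from whole sorted populations, fewer cells in S phase and less of these RNAs per cell cannot be told apart.

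**Figure D1:**
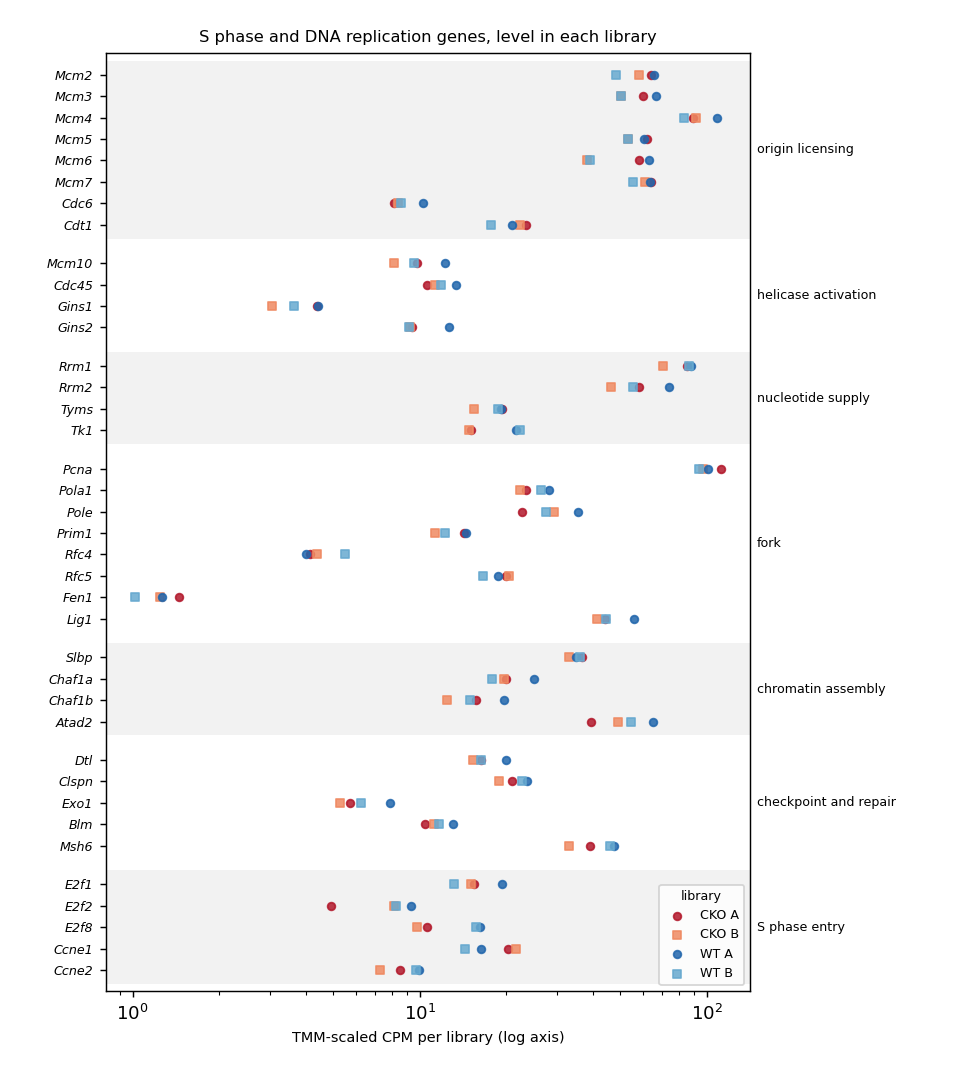
TMM-scaled CPM (log axis) of each of the 38 genes in the 2 CKO libraries (red and orange) and the 2 WT libraries (dark and light blue), with genes grouped by step. The groups overlap in 20 genes. Both CKO libraries sit lower in 15, among them E2f8 and Tk1, and higher in 3, among them Ccne1. Of all genes tested, 29.3% sit lower in both CKO libraries and 27.7% higher.

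Regulators of S phase entry held the lowest and the highest change of the set. E2f8 (chromosome 7, 48866429 to 48881596, GRCm38) was at 10.6 CPM in CKO A and 9.75 in CKO B, against 16.2 in WT A and 15.7 in WT B. Both CKO libraries lay below both WT libraries, by more than the gap within either genotype. The fall was 1.57-fold, a log2 change of -0.65 ± 0.15 (SE, n = 2 per genotype, edgeR adjusted p = 0.0438). Its call was lost in the comparison without WT A (adjusted p = 0.244), without WT B (adjusted p = 0.218), without CKO B (adjusted p = 0.0874) and in DESeq2 (adjusted p = 0.0925), with log2 changes of -0.58 to -0.66. Part of the E2f8 exons, 11.2% of their merged length, lies opposite the transcript Gm2788, and whether the counting used strand is not stated.

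Ccne1, which encodes cyclin E1, the activator of Cdk2 at the start of S phase, stood at 20.3 CPM in CKO A and 21.7 in CKO B, against 16.3 in WT A and 14.4 in WT B. Both CKO libraries were above both WT libraries. The log2 change of 0.45 (95% interval 0.12 to 0.78) did not pass (edgeR adjusted p = 0.0976). Ccne2, encoding cyclin E2, leaned the other way, at 8.53 and 7.29 CPM in CKO A and CKO B, against 9.97 and 9.73 in WT A and WT B. Its log2 change of -0.32 had an interval of -0.73 to 0.10, so the paralogs differed in sign while neither passed.

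The E2F activators did not pass. E2f1 was at 15.4 and 15.1 CPM in CKO A and CKO B, against 19.3 and 13.2 in WT A and WT B, so that the CKO libraries lay inside the WT range. E2f2 was at 4.91 and 8.15 CPM in CKO A and CKO B, against 9.35 and 8.26 in WT A and WT B, and CKO B was close to WT B. E2f7, the paralog of E2f8, which was chosen here after its values were seen, was at 13.8 and 9.97 CPM in CKO A and CKO B, against 20.1 and 16 in WT A and WT B. Its log2 change of -0.60 did not pass either (edgeR adjusted p = 0.113).

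**Figure D2:**
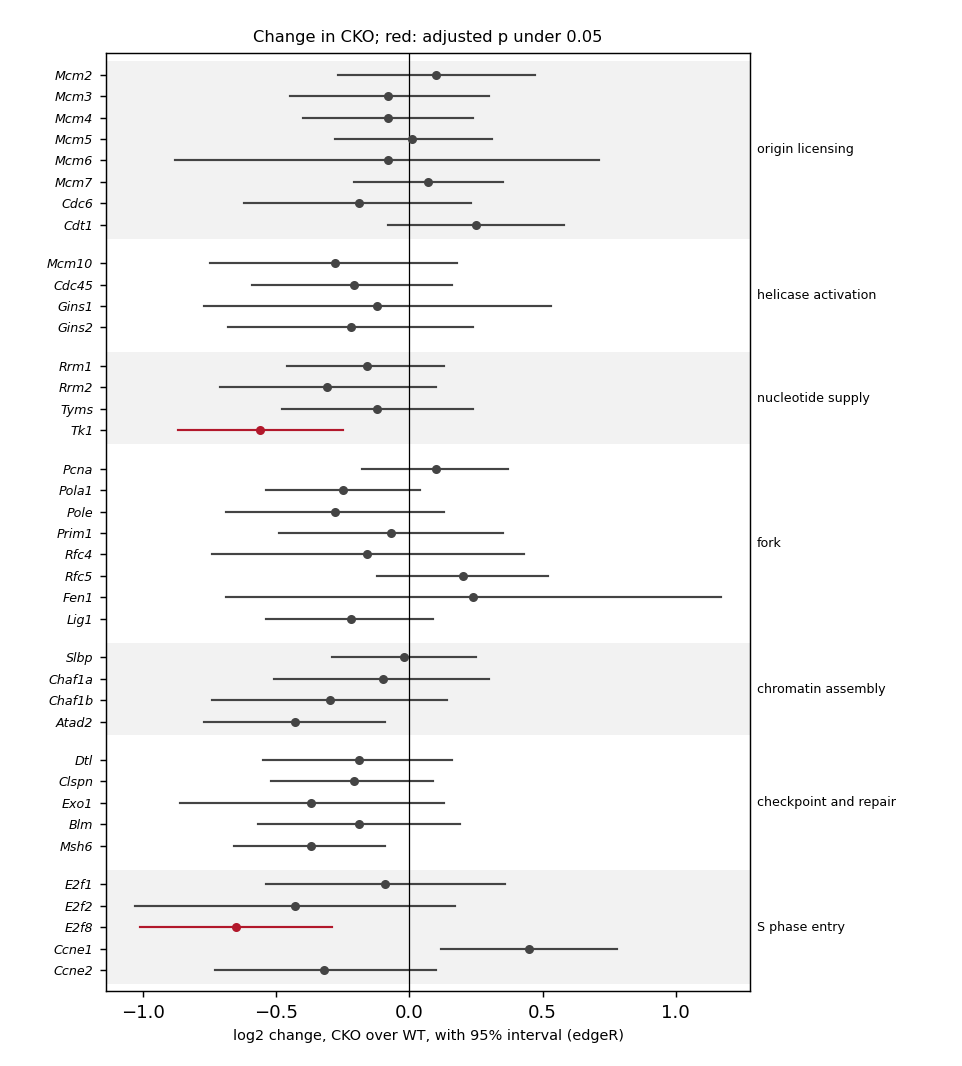
log2 change of CKO over WT for each of the 38 genes with its 95% interval from edgeR, grouped by step, with genes at an adjusted p under 0.05 in red. The intervals of 33 genes include 0, and those of E2f8, Tk1, Atad2, Msh6 and Ccne1 do not.

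Nucleotide supply genes all had log2 changes below 0, with a median of -0.23, which was -0.37 with CKO A left out, -0.08 with CKO B left out and -0.12 with WT A left out. Tk1 (chromosome 11, 117815526 to 117826092) stood at 15.1 CPM in CKO A and 14.8 in CKO B, against 21.6 in WT A and 22.4 in WT B. The libraries of a genotype were close together and the genotypes apart. The fall was 1.47-fold, a log2 change of -0.56 ± 0.13 (SE, n = 2 per genotype, edgeR adjusted p = 0.045). The call was lost without WT A (adjusted p = 0.205), without WT B (adjusted p = 0.273), without CKO B (adjusted p = 0.0729), with RLE size factors (adjusted p = 0.0506), with a mean CPM of at least 1 (adjusted p = 0.0508), in limma-voom (adjusted p = 0.051) and in DESeq2 (adjusted p = 0.104), while the log2 change stayed between -0.52 and -0.57.

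The de novo route of nucleotide supply did not pass for any member. Rrm2, the cell cycle regulated subunit of ribonucleotide reductase, was at 58.1 and 46.3 CPM in CKO A and CKO B, against 73.8 and 55.4 in WT A and WT B. Rrm1, the large subunit, was at 85.4 and 70.2 CPM in CKO A and CKO B, against 87.7 and 86.6 in WT A and WT B. In both genes CKO B was the lowest library, and CKO A lay near the WT range or within it. Tyms, thymidylate synthase, had a log2 change of -0.12 (interval -0.48 to 0.24), and of 0.05 with CKO B left out. CKO B held the lowest level of all 4 members of the step, although for Tk1 the CKO libraries nearly coincided.

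Origin licensing genes had a median log2 change of -0.03, with 4 members above 0, 4 below 0 and none called. That median was 0.17 with WT A left out, -0.17 with WT B left out and 0.12 with CKO B left out. Mcm6 was at 58.1 and 38.2 CPM in CKO A and CKO B, against 62.8 and 39.3 in WT A and WT B. Each genotype therefore held 1 high and 1 low library. Mcm2 was at 63.8 and 57.9 CPM in CKO A and CKO B, against 65.4 and 48.1 in WT A and WT B, Mcm4 at 89.3 and 91.5 against 108 and 83.4, and Mcm7 at 63.8 and 60.8 against 63.5 and 55.3. For the 6 members Mcm2 to Mcm7, which form a ring-shaped helicase, the groups overlapped in each. Mcm5 had a log2 change of 0.01 (interval -0.28 to 0.31) and Mcm3 of -0.08 (interval -0.45 to 0.30).

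The loaders of that helicase did not overlap between genotypes but leaned in opposite directions, and neither passed. Of all genes tested, 29.3% had both CKO libraries below both WT libraries and 27.7% had both above. Cdt1 stood at 23.4 and 22.4 CPM in CKO A and CKO B, against 20.9 and 17.7 in WT A and WT B (log2 change 0.25, edgeR adjusted p = 0.321). Cdc6 stood at 8.15 and 8.37 CPM in CKO A and CKO B, against 10.3 and 8.60 in WT A and WT B (log2 change -0.19, edgeR adjusted p = 0.564). WT B was close to the CKO libraries in Cdc6.

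Helicase activation genes had log2 changes of -0.28 to -0.12 with none called. Mcm10, an activator of the replicative helicase, was at 9.74 and 8.11 CPM in CKO A and CKO B, against 12.2 and 9.54 in WT A and WT B. Cdc45, the helicase cofactor, was at 10.6 and 11.3 CPM in CKO A and CKO B, against 13.4 and 11.9 in WT A and WT B. Gins2, a GINS subunit, was at 9.36 and 9.23 CPM in CKO A and CKO B, against 12.6 and 9.20 in WT A and WT B. WT A was the highest library for all 4 genes of the step, including Gins1 (4.38 and 3.06 CPM in CKO A and CKO B, 4.43 and 3.66 in WT A and WT B). Exons of Gse1 lie opposite 67.3% of the merged exon length of Gins2.

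At the fork, no gene passed and the median log2 change was -0.11. Pcna, the sliding clamp, was the gene of the set with the most reads and stood at 112 and 96.7 CPM in CKO A and CKO B, against 101 and 94.0 in WT A and WT B. Its log2 change of 0.10 had an interval of -0.18 to 0.37, which did not reach the changes of E2f8 (-0.65) and Tk1 (-0.56). That interval rests on 2 libraries per genotype. Pola1, the catalytic subunit of the priming polymerase, was at 23.5 and 22.4 CPM in CKO A and CKO B, against 28.2 and 26.5 in WT A and WT B. The Pola1 groups did not overlap, and the log2 change of -0.25 did not pass (edgeR adjusted p = 0.255). Pole, the leading strand polymerase, was at 22.7 and 29.4 CPM in CKO A and CKO B, against 35.7 and 27.6 in WT A and WT B. CKO B was above WT B in this gene.

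Lig1, which joins Okazaki fragments, was at 44.2 and 41.5 CPM in CKO A and CKO B, against 55.6 and 44.4 in WT A and WT B. WT B nearly met CKO A, and Prim1, the primase catalytic subunit, had a log2 change of -0.07. The clamp loader subunits Rfc4 and Rfc5 had log2 changes of -0.16 and 0.20, and neither passed. Fen1, the flap endonuclease of Okazaki fragments, was the lowest of the set, with 38 and 29 reads in CKO A and CKO B, against 29 and 27 in WT A and WT B. Its interval of -0.69 to 1.17 was the widest, and 78.8% of its merged exon length lies opposite the antisense gene Gm10143. That antisense gene held 2 and 7 reads in CKO A and CKO B, against 7 and 3 in WT A and WT B.

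Chromatin assembly genes had a median log2 change of -0.20 with none called. Atad2, a bromodomain ATPase of replicating chromatin, was at 39.5 and 49.0 CPM in CKO A and CKO B, against 64.8 and 54.4 in WT A and WT B. The groups did not overlap, and the log2 change of -0.43 (interval -0.77 to -0.09) did not pass (edgeR adjusted p = 0.116). It passed without CKO B (log2 change -0.58, adjusted p = 0.0466). Chaf1a and Chaf1b, subunits of the chromatin assembly factor that places histones behind the fork, had log2 changes of -0.10 and -0.30, and Ubxn6 lies opposite 52.5% of the exon length of Chaf1a. Slbp, which binds the stem loop of histone mRNAs, was at 36.7 and 33.2 CPM in CKO A and CKO B, against 34.9 and 36.1 in WT A and WT B, with a log2 change of -0.02.

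Checkpoint and repair genes were the step in which every member had both CKO libraries below both WT libraries, an order seen in 15 of the 38 genes (39.5%) and in 29.3% of all genes tested. None passed. Msh6, a mismatch recognition protein, was at 39.1 and 33.1 CPM in CKO A and CKO B, against 47.4 and 46.1 in WT A and WT B (log2 change -0.37, edgeR adjusted p = 0.11). The log2 change of Msh6 was -0.47 without CKO A, the library with Y-linked reads, and -0.25 without CKO B. Exo1, the exonuclease of mismatch and break repair, was at 5.71 and 5.26 CPM in CKO A and CKO B, against 7.90 and 6.26 in WT A and WT B. Clspn, the checkpoint mediator at stalled forks, had a log2 change of -0.21, Blm, a helicase that resolves recombination intermediates, of -0.19, and Dtl, which directs the destruction of Cdt1, of -0.19. The opposite order, with both CKO libraries above both WT libraries, was found in 3 of the 38 genes, Cdt1, Rfc5 and Ccne1, and in 27.7% of all genes.

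**Figure D3:**
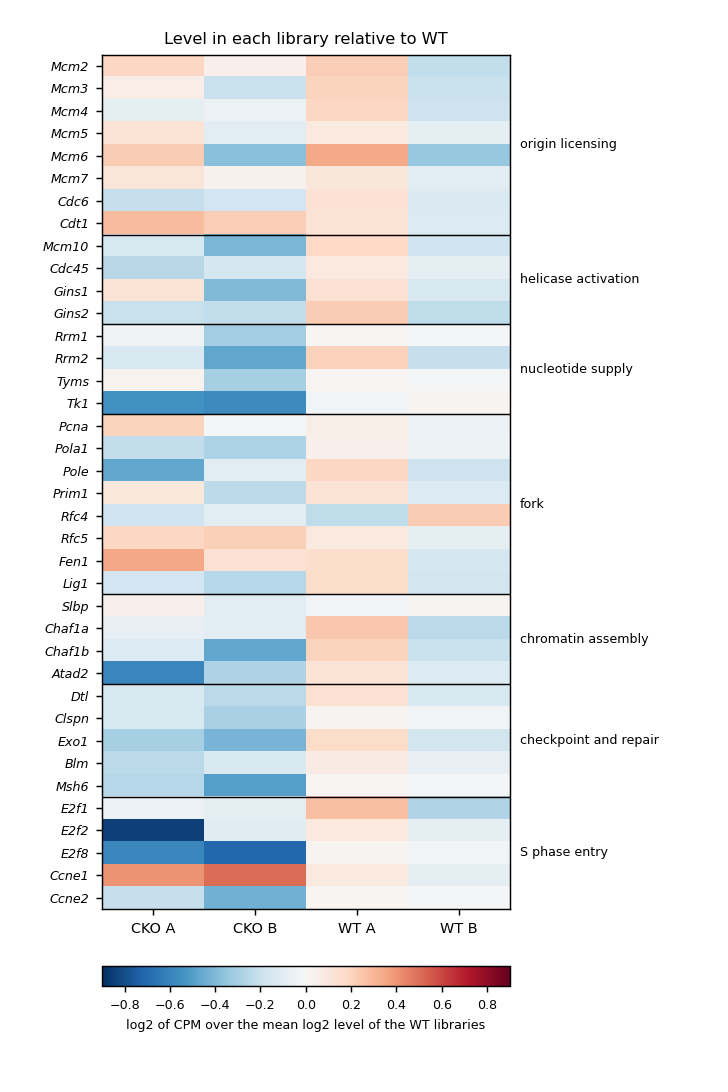
Level of each of the 38 genes in each library as the log2 of its CPM relative to the mean log2 level of the WT libraries (blue lower, red higher), with CKO on the left and steps separated by lines. WT A is the highest library for 27 genes and CKO B the lowest for 19. Ccne1 and E2f8, among others, show the same colour in both CKO libraries.

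In these genes the WT libraries differed from each other by more than the median change between genotypes, and the CKO libraries by less. WT A was above WT B in 35 of 38 genes (92.1%), against 49.1% of all genes tested, with a median log2 difference of 0.25. CKO A was above CKO B in 28 of 38 (73.7%), against 50% of all genes, with a median difference of 0.11. Summed over the set, the level was 1147 CPM in CKO A and 1048 in CKO B, against 1289 in WT A and 1089 in WT B, so CKO A lay above WT B. The 40 G2/M and mitosis genes did not share the order of the WT libraries, and WT A was above WT B in 7 of them, with a median difference of -0.16.

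WT A is the only library whose column name starts with a different number, and the meaning of that number is not stated. With WT A left out, which leaves the libraries of 1 number, the median log2 change of the set was -0.04 and 22 of 38 changes lay below 0. Without WT B the median was -0.29 and 31 of 38 lay below 0. The median of the set was thus nearer 0 without WT A, while E2f8 and Tk1 had nearly the same change with either WT library alone. WT A was also the library with the high chondrocyte marker sum, whose part in this difference was not tested. DESeq2 called none. In the authors' deposited table none of the 38 has an adjusted p under 0.05, a limit that 4.3% of its 31247 genes pass. At an unadjusted p under 0.05 in edgeR with all libraries, 10.5% of the set were lower and 2.63% higher. Over all genes tested these shares were 12.1% and 13.1%.

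**Figure D4:**
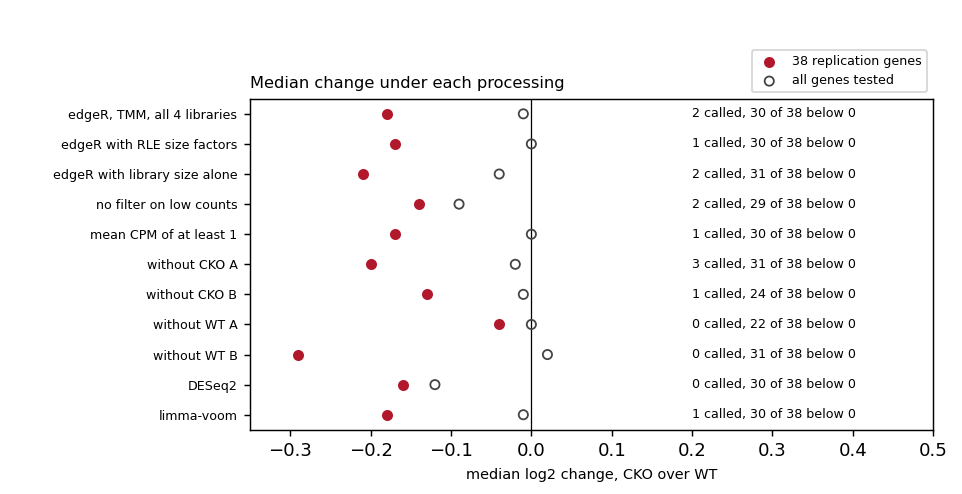
Median log2 change of CKO over WT of the 38 genes (filled red points) and of all genes tested (open points) under each processing, with the number of the 38 called and the number below 0 printed at the right. The median of the set runs from -0.29 without WT B to -0.04 without WT A, and the number called from 0 to 3.

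Per length of merged exon, Pcna was the most abundant of the set, at 43.4 ± 4.40 CPM per kilobase in CKO and 40.6 ± 2.07 in WT (SD, n = 2 each). Mcm4 followed, at 25.2 ± 0.417 CPM per kilobase in CKO and 26.6 ± 4.80 in WT, and then Rrm2, at 18.8 ± 3 in CKO and 23.3 ± 4.68 in WT. Mcm4 and Rrm2 did not differ in WT beyond their spread, nor did Mcm3, Mcm5 and Mcm7, which lay between 13.4 and 15.5 CPM per kilobase in WT. E2f8 was at 1.87 ± 0.113 CPM per kilobase in CKO and 2.94 ± 0.0669 in WT, and Fen1 was the lowest, at 0.557 ± 0.0570 in CKO and 0.473 ± 0.0744 in WT. Fen1, Gins1 and Rfc4 were the 3 genes with fewer than 100 reads in some library.

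Other genes of the pathway gave the same picture of few calls. All of 107 further genes in 6 lists of licensing, fork, nucleotide, chromatin, repair and E2F genes were tested. Of these 107, 0 were called in either direction, against 7.61% of all genes tested. A log2 change below 0 was seen in 75, against 50.9% of all genes, and the median was -0.10. At an unadjusted p under 0.05, 14 of the 107 were lower and 0 higher, where 12.1% of all genes tested were lower and 13.1% higher. Of those 14, the E2F and Rb list of 19 genes held 6, among them Tfdp2, a dimer partner of E2F factors. Tfdp2 was at 41.3 and 39.3 CPM in CKO A and CKO B, against 59.1 and 52.4 in WT A and WT B (edgeR adjusted p = 0.0504). Cdc25a, the phosphatase that activates Cdk2, was at 25.1 and 20.1 CPM in CKO A and CKO B, against 30.0 and 31.8 in WT A and WT B (edgeR adjusted p = 0.0992). Without CKO A, the log2 change was -0.47 for Tfdp2 and -0.59 for Cdc25a, and without CKO B it was -0.42 and -0.29.

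The licensing and firing list had 15 of 18 changes below 0 and a median of -0.19. Gins3, the GINS subunit, was at 3.39 and 3.15 CPM in CKO A and CKO B, against 6.50 and 4.94 in WT A and WT B (log2 change -0.80, edgeR adjusted p = 0.0935), and Orc4, of the origin recognition complex, had a log2 change of -0.37 (adjusted p = 0.104). The repair and checkpoint list had 16 of 18 below 0 and a median of -0.27, with Rad18 and Atrip, which act at stalled forks, at log2 changes of -0.49 and -0.46 (edgeR adjusted p = 0.12 and 0.132). The further fork genes had a median of -0.07, with Top2a at -0.23 and Pold4 at 0.42, the nucleotide genes a median of 0.03, with Dctpp1 at 0.31 and Impdh2 at 0.18, and the chromatin genes a median of -0.02, with Tonsl at -0.54. None of these named genes passed. Uhrf1, the partner of Dnmt1, was at 51.9 and 51.5 CPM in CKO A and CKO B, against 67.5 and 51.9 in WT A and WT B, and 3 of the 4 libraries were nearly equal.

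Among G2/M and mitosis genes 34 of 40 changes lay below 0, against 50.9% of all genes tested, with a median of -0.18. In edgeR 0 of the 40 were called, against 7.61% of all genes. At an unadjusted p under 0.05, 7 of the 40 were lower, against 12.1% of all genes. DESeq2 called 2 of the G2/M genes, Hjurp and Mki67 (adjusted p = 0.0481 and 0.0488). Hjurp, the chaperone of centromeric histone, was at 65.5 and 70.5 CPM in CKO A and CKO B, against 89.2 and 97.7 in WT A and WT B. Mki67, a marker of cycling cells, was at 218 and 250 CPM in CKO A and CKO B, against 318 and 308 in WT A and WT B. The G2/M median was -0.23 once WT A was left out and -0.09 once WT B was, the reverse order of that in the replication genes.

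Histone genes of the replication-dependent clusters summed to 53.9 CPM in CKO A and 60.7 in CKO B over all 54 listed genes, against 42.1 in WT A and 38.4 in WT B. The labels do not state how RNA was selected for the libraries, so which kinds of histone transcripts were captured is unknown. Of the listed histone genes, 9 passed the filter and 2, Hist1h1c and Hist1h2bc, rose in CKO, where 4.85% of all genes tested were called higher. Without these 2 genes the summed level did not separate the genotypes. In 6 of the 9, both CKO libraries lay above both WT libraries, an order seen in 27.7% of all genes tested. Hist1h1c, a linker histone gene, was at 20.1 and 29.3 CPM in CKO A and CKO B, against 13.5 and 11.7 in WT A and WT B (log2 change 0.97 ± 0.20, SE, edgeR adjusted p = 0.03). Hist1h2bc, an H2B gene, was at 10.6 and 13.2 CPM in CKO A and CKO B, against 6.15 and 6.22 in WT A and WT B (log2 change 0.94 ± 0.19, edgeR adjusted p = 0.0265). Near-identical copies can share reads, and the call of Hist1h1c was lost without WT A (adjusted p = 0.0576) and without WT B (adjusted p = 0.176). Leaving out CKO B (adjusted p = 0.0597), WT A (adjusted p = 0.115) or WT B (adjusted p = 0.143) each ended the call of Hist1h2bc.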

How the data were processed

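RNA sequencing counts of 2 CKO and 2 WT libraries were analysed. The submitters' processing notes name STAR, edgeR 3.28.1, Trimmomatic 0.36, cutadapt 2.5 and FastQC 0.11.8, without their roles, and the build GRCm38.p6. The authors deposited raw counts per gene; no source used here gives the counting tool or its strand setting. The authors' deposited table also holds their own log2 fold change with its p-value and adjusted p-value, quoted only where named. The 4 other per-sample columns were not used. The deposited gene length adds up the exons of all transcripts (98.5% of genes, plus 1 base per exon), a median of 1.79 times the merged exons in these genes, so merged exons of GENCODE M21 (GRCm38; all 38 genes matched) were used.

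Across all genes, edgeR 4.0.16 in R 4.3.3 was run with filterByExpr (minimum count 10), TMM, and robust glmQLFit and glmQLFTest, two-sided, with Benjamini-Hochberg adjustment over 15210 genes at 0.05. Standard errors are the log2 change over the square root of F, and 95% intervals use edgeR's total degrees of freedom. The biological coefficient of variation was 0.16. Intervals rest on 2 libraries per genotype and on a spread that the fit moderates across genes. Libraries of a genotype differed beyond sampling noise (chi-square per degree of freedom 32.4 for CKO and 18.1 for WT). Whether animals shared a litter is not stated. Fewer than 100 reads in a library limited 3 genes. The code was tested on simulated data. Members and lists were chosen with earlier results of these data known. Named genes were all members, called genes of each other list or else its 2 lowest p, and checks. Alternatives were DESeq2 1.42.0, limma-voom (limma 3.58.1), other scalings, filters and thresholds, and leaving out each library.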

Additional observations from a re-analysis of the deposited data

How the results depend on the processing

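No paired analysis was possible because the count columns carry no replicate number. The number of the 38 genes called was 2 with all libraries, 1 with RLE size factors, 1 with a mean CPM of at least 1, 1 in limma-voom, 0 in DESeq2 and 0 at an adjusted p under 0.01, and ran from 0 to 3 when a library was left out, where the lone library of a genotype is assumed to vary like the other genotype. E2f8 and Tk1 were below 0 in every alternative run. Over all genes, 1157 were called, 2459 with no filter on low counts and 241 at an adjusted p under 0.01, and 339 to 1842 with a library left out. With a library left out, the median log2 change ran from -0.17 to 0.17 in origin licensing, -0.36 to -0.03 in helicase activation, -0.37 to -0.08 in nucleotide supply, -0.32 to -0.18 in checkpoint and repair, -0.08 to 0.02 at the fork, -0.40 to -0.06 in chromatin assembly and -0.33 to -0.08 in S phase entry, and from -0.22 to -0.12 in the further licensing list, -0.13 to 0.04 in the fork list, 0.04 to 0.10 in the nucleotide list, -0.31 to -0.16 in the repair list and -0.15 to -0.08 in the E2F and Rb list. Called genes of that last list numbered 0, but 1 with library size alone, 2 with no filter and 0 to 3 with a library left out. Those of the G2/M list numbered 0, but 2 with library size alone, 2 with no filter, 2 in DESeq2 and 0 to 1 with a library left out. The further licensing list had 0 to 1 and the histone genes 0 to 3 with a library left out. The sign of the change switched in some alternative for 14 of the 38 genes, none of them called in any fit, and held for 24. The median of all genes was -0.12 in DESeq2 and -0.09 with no filter, where low genes were included. The cause of these differences was not tested. Apart from E2f8 and Tk1, 2 members (Atad2 and Msh6) were called in some alternative.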
